A study of Mus musculus with 12 samples.

Results

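The 10 mRNAs described here encode enzymes of glycolysis and the 2 main subunits of lactate dehydrogenase, namely Hk1, Aldoa, Tpi1, Gapdh, Pgk1, Eno1, Eno2, Pkm, Ldha and Ldhb. They were taken by gene symbol, by a rule that used no measured value but was set with earlier results of these data known, from the 55573 genes of the count table, and all 10 were among the 17126 genes that passed the filter on low counts. The symbol Aldoa belonged to 2 entries. The entry with an Entrez identifier was taken as Aldoa, and the second, a neighbouring gene with 4 to 33 reads in each library, was counted apart.

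All libraries were made from hippocampal neurons that had been taken from newborn mice of the inbred strain C57BL/6 and kept for 14 days in culture, and no group carried another genotype or treatment. Hippocampi of single litters of both sexes had been pooled, and cytosine arabinoside had been added to limit the growth of glia. There were 4 groups of 3 libraries. RNA immunoprecipitation (RIP) used an antibody against endogenous YTHDF1, YTHDF2 or YTHDF3, and Input was total RNA of the lysate. Each RIP was set against Input to ask which mRNAs were recovered with each protein, and the RIPs were set against each other to ask where the proteins differed. RIPs with an unspecific antibody were not analysed here. Binding to beads or to antibody therefore cannot be told apart from binding to the protein.

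Glycolysis splits glucose into pyruvate and yields ATP, and lactate dehydrogenase converts pyruvate and lactate into each other. Neurons depend on this supply at synapses, and astrocytes are known for high rates of glycolysis and for the release of lactate. The YTHDF proteins are cytoplasmic readers of N6-methyladenosine (m6A), a methyl mark on adenosines that lies mostly in a GGAC or related context, often near the stop codon and in the 3′ UTR of mRNAs. In a RIP, an mRNA that is bound more than the average mRNA makes up a larger share of the library than in Input.

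The letters GGACT, which hold the commonest context of m6A with a U in the RNA written as T, were searched on the mRNA strand of 1 GENCODE M21 transcript for each gene. Every GGACT also counts as a GGAC. Hk1 held 9 matches to GGACT, Eno2 and Pkm 7 each, Pgk1 4, Tpi1 3, Gapdh 2, and Eno1 and Ldha 1 each, while Aldoa and Ldhb held none in these transcripts. Among 13376 protein-coding mRNAs tested, 92.11% held at least 1 GGACT and the median number was 3. The match nearest to the stop codon is shown for 6 of the mRNAs, in capitals with 10 bases on each side, because these mRNAs cover the range from enriched to depleted. A match shows only the letters, and methylation was not measured in these libraries.
Hk1, 3′ UTR: gggaggaaggGGACTgcagtaacgg
Eno2, coding sequence: tcttgtcgtcGGACTgtgtacaggc
Pkm, 3′ UTR: gaggaatgcaGGACTggaaaccctg
Eno1, coding sequence: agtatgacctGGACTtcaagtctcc
Tpi1, 3′ UTR: tgcatagcatGGACTaggttgccca
Gapdh, 5′ UTR: ctataaatacGGACTgcagccctcc

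On the GRCm38 build the Hk1 window lay at chr10:62269747-62269771 on the minus strand, with the A of the motif 152 bases after the first base of the stop codon. The Eno2 window lay at chr6:124762656-124762680 on the minus strand, in the last part of the coding sequence. The Pkm window lay at chr9:59679033-59679057 on the plus strand, 213 bases after it, and the Tpi1 window at chr6:124811220-124811244 on the minus strand, 39 bases after it. The Eno1 window, at chr4:150246669-150246693 on the plus strand, lay within the coding sequence, and the Gapdh window, at chr6:125165611-125165635 on the minus strand, lay in the 5′ UTR, 1089 bases before the stop codon of the transcript used. Hk1 was also the longest of the 10 mRNAs at 3851 bases. The others ranged from 1304 bases (Ldhb) to 2795 bases (Eno2), and the median of the 10 was 1796 bases against 3130 bases over all protein-coding mRNAs tested.

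The total count per library was 6020072 to 38909592, and the reads of the 10 genes ranged from 120 (Tpi1 in a YTHDF2 library) to 27678 (Hk1 in a YTHDF1 library). A count of 120 has a counting error of 9.13% (Poisson SD), beside a biological coefficient of variation of 0.323 estimated over all genes, and no fit at reduced depth was run. Marker genes of neurons and of glia were both found. The astrocyte sum was above the neuronal sum in Input replicate 3 (2723 against 1732 CPM) and YTHDF2 replicate 2 (1604 against 981 CPM). The same held in YTHDF3 replicate 3 (2350 against 1858 CPM), while the neuronal sum was the larger in all other libraries. In Input the summed level of 8 neuronal markers was 1732 to 3219 CPM, that of 7 astrocyte markers 276 to 2723 CPM, that of 7 markers of the oligodendrocyte lineage 58.0 to 398 CPM, and that of 6 microglial markers 2.82 to 6.71 CPM. None of these markers was at 0 in all Input libraries. The ranges of the astrocyte markers were 377 to 946 CPM in YTHDF1, 831 to 1604 CPM in YTHDF2 and 260 to 2350 CPM in YTHDF3 RIPs, and those of the neuronal markers 1310 to 2182, 981 to 1845 and 1858 to 3691 CPM. Fewer cells of a type and less RNA per cell cannot be told apart in such bulk libraries.

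The replicates of a group differed in a way that ran through most of the glycolytic mRNAs. Replicate 3 gave the highest value of its group for 9 of the 10 in YTHDF1 and for 10 of 10 in YTHDF2, but the lowest for 10 of 10 in YTHDF3 and for 7 of 10 in Input. Over all tested genes, the deviation of each YTHDF3 library from its group mean correlated with that of the Input library of the same number (r of 0.53 to 0.83), which was not so for YTHDF1 (r of -0.32 to 0.09) or YTHDF2 (r of -0.32 to 0.18). The methods describe a lysate that was split among the RIPs, but whether the replicate numbers of the YTHDF1 and YTHDF2 libraries name the same lysates as those of Input is not stated, and values from a fit with a replicate block are uncertain for them to that extent. The numbers paired YTHDF3 with Input, and for this comparison a fit of the 2 groups with the replicate as a block is given beside the fit over all 12 libraries. CPM values of single genes are counts per 1e+06 of the library size scaled by TMM, a trimmed mean of log ratios. The summed marker levels are counts per 1e+06 of the total count of a library, without TMM. Fold changes and adjusted p-values are from edgeR's quasi-likelihood test with Benjamini-Hochberg adjustment over 17126 genes. A gene was called enriched or depleted when it lay at least 25% above or 20% below Input with an adjusted p of at most 0.05. The methods call the replicates biological and describe, for each, pooled lysates of several wells that were split among the RIPs with a shared Input. They do not say whether replicates came from separate litters or days, and the p-values measure the spread between these libraries.

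Hk1 was the only one of the 10 enriched in the YTHDF1 RIP, 3 were depleted (Gapdh, Tpi1 and Ldhb) and 6 did not pass. Over all genes 27.2% were enriched and 25.8% depleted. In the YTHDF2 RIP Hk1 was again the only one enriched, and the same 3 were depleted, beside 15.7% and 19.0% of all genes. In the YTHDF3 RIP none was enriched and 7 were depleted, namely Tpi1, Gapdh, Aldoa, Ldhb, Ldha, Eno1 and Pgk1, beside 16.4% and 23.0% of all genes. In YTHDF3, edgeR thus called 0 enriched, while 1 (Hk1) was higher at an unadjusted p under 0.05 and DESeq2 called 1. In YTHDF1 and YTHDF2, 1 enriched and 3 depleted of 10 genes are too few to be set apart from the shares of all genes. The median log2 fold change of the 10 was -0.23 in YTHDF1, -0.53 in YTHDF2 and -1.08 in YTHDF3, against 0.02, 0.02 and 0.05 over all tested genes. The YTHDF1 median was not stable, at 0.03 without YTHDF1 replicate 1, -0.53 without YTHDF1 replicate 3, -0.49 under TMM over protein-coding genes and -0.67 under library size alone. In the fit with paired replicates, Hk1 was enriched in YTHDF3 and 8 were depleted, with Pkm added to the 7, where 36.3% of all genes were enriched and 32.2% depleted. The libraries of a RIP and of Input did not overlap for 4 of the 10 in YTHDF1, 5 in YTHDF2 and 9 in YTHDF3. Over all tested genes they did not overlap, in either direction, for 55.9%, 52.8% and 55.7%.

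**Figure D1:**
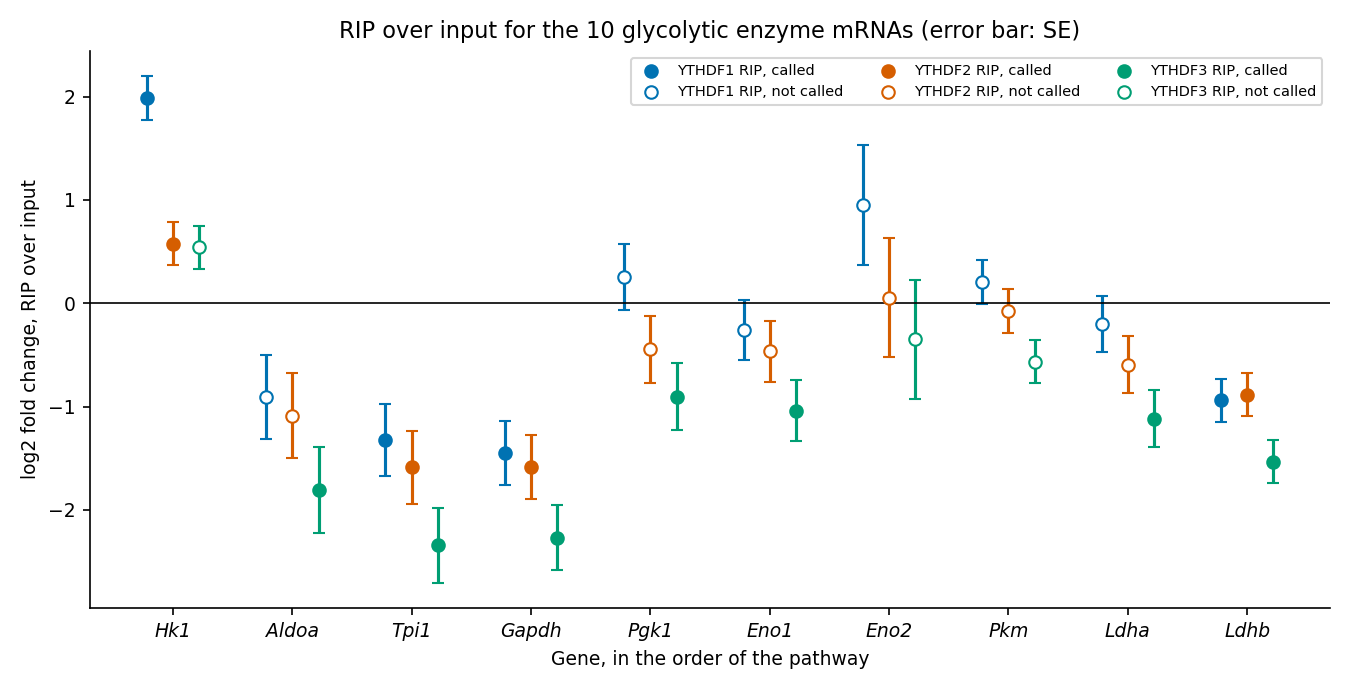
The log2 fold change of each RIP over Input is plotted for the 10 mRNAs in the order of the pathway, with the SE as error bar, filled points for called genes and open points for genes not called. Hk1 lies at 1.99 in YTHDF1 and at 0.58 and 0.54 in YTHDF2 and YTHDF3, while Tpi1 and Gapdh lie at -1.32 or lower in each RIP.

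Hk1 (chr10:62268855-62379908, minus strand) encodes hexokinase 1, which phosphorylates glucose at the entry to glycolysis and is the main hexokinase of the brain. Its level was 238, 207 and 191 CPM in Input and 770, 749 and 1004 CPM in the YTHDF1 RIP. Every YTHDF1 library lay at more than 3 times the highest Input library, and the log2 fold change was 1.99 ± 0.21 (SE, adjusted p = 2.89e-05). In the YTHDF2 RIP the values were 293, 262 and 394 CPM, and in the YTHDF3 RIP 337, 314 and 274 CPM. Both groups lay wholly above Input. The log2 fold changes were 0.58 ± 0.21 (adjusted p = 0.0485) and 0.54 ± 0.21 (adjusted p = 0.0565). The YTHDF2 call was lost in 15 of 23 alternative settings, among them a replicate block (0.56, adjusted p = 0.0738). It was also lost without Input replicate 1, 2 or 3, YTHDF2 replicate 1 or 3, or YTHDF3 replicate 1, 2 or 3 (adjusted p of 0.0523 to 0.191). With replicates of YTHDF3 and Input paired, the fold change was 0.60 ± 0.10 (adjusted p = 7.43e-06).

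Aldoa (chr7:126795234-126800751, minus strand) encodes aldolase A, which splits the six-carbon sugar bisphosphate into the triose phosphates. It was at 467, 414 and 296 CPM in Input and at 139, 174 and 316 CPM in the YTHDF1 RIP. The third YTHDF1 library reached into the range of Input, and the log2 fold change of -0.90 ± 0.41 did not pass (adjusted p = 0.0818). Without that library it was -1.32 (adjusted p = 0.0263), and without Input replicate 3 it was -1.18 (adjusted p = 0.0477). The YTHDF2 values of 175, 105 and 273 CPM lay below Input, with a log2 fold change of -1.09 ± 0.41 (adjusted p = 0.0585) that passed in 9 of 23 alternative settings, among them without YTHDF2 replicate 3 (-1.49, adjusted p = 0.0306). The YTHDF3 values of 152, 114 and 69.6 CPM were the lowest, and the mRNA was depleted by -1.81 ± 0.42 on the log2 scale (adjusted p = 0.00499).

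Tpi1 (chr6:124810586-124814296, minus strand) encodes triosephosphate isomerase, which interconverts the products of aldolase. Its level was 85.4, 62.5 and 66.3 CPM in Input, 17.8, 33.9 and 33.8 CPM in YTHDF1, 16.9, 17.9 and 36.3 CPM in YTHDF2 and 17.7, 14.6 and 9.82 CPM in YTHDF3. No RIP library overlapped Input. The log2 fold changes were -1.32 ± 0.35 (adjusted p = 0.00764), -1.59 ± 0.35 (adjusted p = 0.00534) and -2.34 ± 0.36 (adjusted p = 0.000408).

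Gapdh (chr6:125161715-125166467, minus strand) encodes glyceraldehyde phosphate dehydrogenase, the oxidative step, and its mRNA often serves as a reference in expression assays. It fell from 236, 210 and 195 CPM in Input to 44.2, 91.1 and 98.3 CPM in YTHDF1, 61.6, 57.8 and 94.4 CPM in YTHDF2 and 55.3, 44.0 and 33.6 CPM in YTHDF3. The RIP libraries lay wholly below Input. The log2 fold changes were -1.45 ± 0.31 (adjusted p = 0.00222), -1.58 ± 0.31 (adjusted p = 0.00276) and -2.27 ± 0.32 (adjusted p = 0.000232). Gapdh and Tpi1 were called depleted in all 3 RIPs in each of 23 alternative settings.

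Pgk1 (chrX:106187100-106203699, plus strand) encodes phosphoglycerate kinase, the first step of the pathway that yields ATP. Its values were 120, 110 and 93.5 CPM in Input, 81.0, 115 and 189 CPM in YTHDF1, and 77.5, 52.0 and 107 CPM in YTHDF2. These groups overlapped, with log2 fold changes of 0.25 ± 0.32 (adjusted p = 0.530) and -0.45 ± 0.32 (adjusted p = 0.303). The sign in YTHDF1 turned under library size alone (-0.18), under TMM over protein-coding genes (-0.01) and without YTHDF1 replicate 3 (-0.14). In YTHDF3 it was at 66.1, 60.5 and 46.1 CPM and was depleted by -0.90 ± 0.32 (adjusted p = 0.0427). That call was lost in 11 of 23 settings, including the fit over 12 libraries with the replicate block (adjusted p = 0.0559) and without any 1 of the Input or YTHDF3 libraries or YTHDF2 replicate 1 (adjusted p of 0.0585 to 0.128). In the paired fit of the 2 groups it held at -0.85 ± 0.09 (adjusted p = 1.9e-08).

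The enolases Eno1 (chr4:150236721-150248879, plus strand) and Eno2 (chr6:124760053-124769673, minus strand) catalyse the same step, the former in most cells and the latter mainly in neurons. Their coding sequences were 75.1% identical. Eno1 was at 402, 404 and 383 CPM in Input, at 199, 328 and 466 CPM in YTHDF1, at 231, 238 and 391 CPM in YTHDF2 and at 212, 194 and 171 CPM in YTHDF3. Only the YTHDF3 libraries lay wholly below Input, by a log2 fold change of -1.04 ± 0.29 (adjusted p = 0.0152), which became -0.96 (adjusted p = 0.0525) without YTHDF3 replicate 3. The values in YTHDF1 and YTHDF2 were -0.26 ± 0.29 (adjusted p = 0.478) and -0.47 ± 0.29 (adjusted p = 0.239).

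Eno2 varied most between replicates, with 149, 109 and 59.0 CPM in Input, 170, 88.0 and 353 CPM in YTHDF1, 107, 49.3 and 172 CPM in YTHDF2 and 121, 85.0 and 42.6 CPM in YTHDF3. All 4 groups overlapped. The log2 fold changes were 0.95 ± 0.58 (adjusted p = 0.188), 0.05 ± 0.57 (adjusted p = 0.953) and -0.35 ± 0.57 (adjusted p = 0.660). The YTHDF2 value turned its sign in 8 of 23 settings. The YTHDF1 value was 0.29 without YTHDF1 replicate 3 and 0.56 without Input replicate 3, and the YTHDF3 value ranged from -0.72 to -0.02 as single libraries were left out, with -0.72 without YTHDF3 replicate 1, -0.61 without Input replicate 3, -0.03 without YTHDF3 replicate 3 and -0.02 without Input replicate 1. In each of the 4 groups the order of the 3 replicates in Eno2 was also that of the summed neuronal markers, which stood at 3219, 2440 and 1732 CPM in Input and at 1810, 1310 and 2182 CPM in YTHDF1. The same held for Hk1, so this order was not particular to Eno2. The part of neuronal content in the Eno2 and Hk1 values was not tested. With paired replicates the change of Eno2 in YTHDF3 had an adjusted p of 0.00405 but a log2 fold change of only -0.32 ± 0.09, under the threshold on fold.

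Pkm (chr9:59656368-59679375, plus strand) encodes pyruvate kinase, the last step to pyruvate. It was at 434, 418 and 372 CPM in Input, 327, 493 and 589 CPM in YTHDF1, 356, 375 and 431 CPM in YTHDF2 and 273, 291 and 263 CPM in YTHDF3. The first 3 groups overlapped, with log2 fold changes of 0.20 ± 0.21 (adjusted p = 0.441) in YTHDF1 and -0.08 ± 0.21 (adjusted p = 0.804) in YTHDF2. The sign in YTHDF1 turned under library size alone, under TMM over protein-coding genes and with the length trend removed. The YTHDF3 libraries lay wholly below Input, at -0.56 ± 0.21 (adjusted p = 0.0527) over 12 libraries and -0.50 ± 0.10 (adjusted p = 0.000109) in the paired fit.

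The lactate dehydrogenase subunits were Ldha (chr7:46841475-46855627, plus strand), known for the form that favours lactate, and Ldhb (chr6:142490249-142507957, minus strand), known for the form that favours pyruvate. Ldhb was at 48.5, 64.3 and 57.6 CPM in Input, 22.8, 32.2 and 33.6 CPM in YTHDF1, 29.6, 26.7 and 35.9 CPM in YTHDF2 and 17.9, 23.2 and 17.8 CPM in YTHDF3. No RIP library overlapped Input, and the log2 fold changes were -0.94 ± 0.21 (adjusted p = 0.00258), -0.88 ± 0.21 (adjusted p = 0.00682) and -1.53 ± 0.21 (adjusted p = 0.00019). The calls in YTHDF1 and YTHDF2 were lost once the length trend was removed (-0.33, adjusted p = 0.223, and -0.45, adjusted p = 0.133). Ldha was at 165, 129 and 181 CPM in Input and 78.5, 71.8 and 68.3 CPM in YTHDF3, where it was depleted by -1.12 ± 0.28 (adjusted p = 0.00735). In YTHDF1 (85.4, 143 and 185 CPM) and YTHDF2 (81.9, 98.2 and 134 CPM) it overlapped Input, at -0.20 ± 0.27 (adjusted p = 0.565) and -0.59 ± 0.27 (adjusted p = 0.114).

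**Figure D2:**
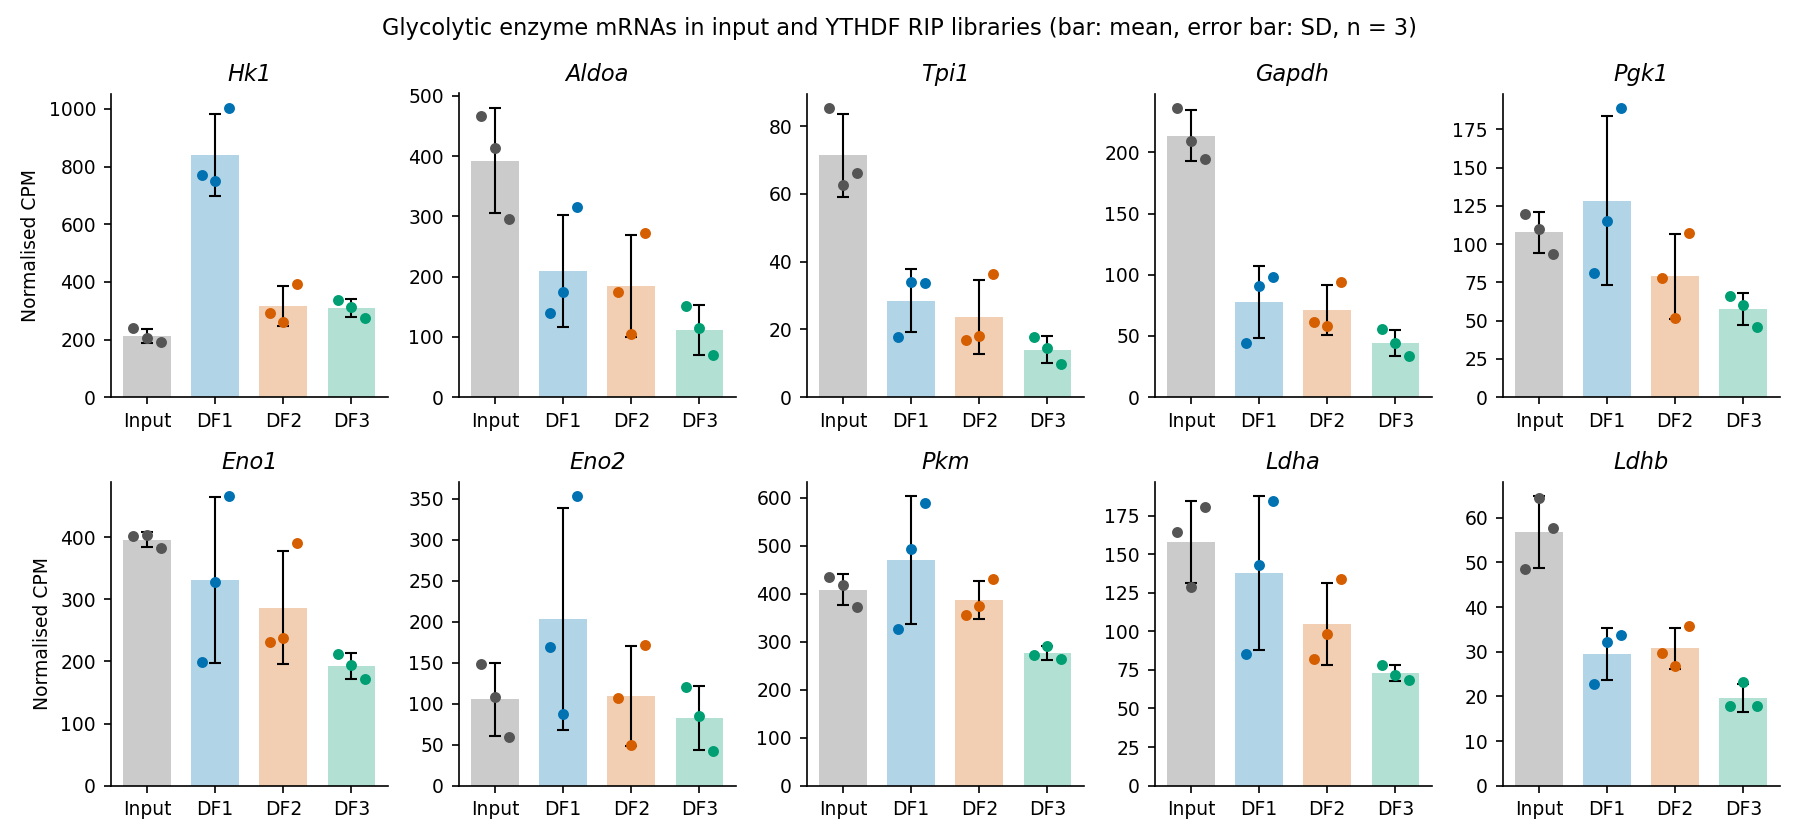
Each panel plots the normalised CPM of 1 mRNA in the 3 libraries of Input and of the YTHDF1 (DF1), YTHDF2 (DF2) and YTHDF3 (DF3) RIPs, with a bar for the mean and an error bar for the SD, on an axis from 0. The 3 YTHDF1 libraries of Hk1 lie between 749 and 1004 CPM, above every other library, while the RIP libraries of Tpi1, Gapdh and Ldhb lie below every Input library. Over all tested genes, 28.0%, 27.5% and 29.1% lie wholly below Input in YTHDF1, YTHDF2 and YTHDF3.

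Levels of different genes were compared per kilobase of the GENCODE transcript, although reads were counted over all exons of a gene. In Input Aldoa was the highest at 260 ± 57.8 CPM per kilobase (SD, n = 3), followed by Eno1 (196 ± 5.66), Pkm (168 ± 13.3), Gapdh (150 ± 14.8), Ldha (89.5 ± 15.1), Pgk1 (59.0 ± 7.29), Hk1 (55.1 ± 6.21), Tpi1 (44.4 ± 7.63), Ldhb (43.6 ± 6.11) and Eno2 (37.7 ± 16.0). Neighbours whose library ranges did not overlap were Eno1 and Pkm, Gapdh and Ldha, and Ldha and Pgk1, and all other neighbours overlapped. In the YTHDF1 RIP Hk1 stood first, at 218 ± 36.7 CPM per kilobase, and Pkm (193 ± 54.6), Eno1 (163 ± 65.8) and Aldoa (139 ± 61.8) followed with overlapping ranges. In YTHDF2 the order began with Pkm (159 ± 16.2), Eno1 (141 ± 44.7), Aldoa (122 ± 55.9) and Hk1 (82.2 ± 17.98), and in YTHDF3 with Pkm (113 ± 5.77), Eno1, Hk1 (80.1 ± 8.32) and Aldoa (74.0 ± 27.2). Tpi1 was last in each RIP. The order depends on the length used. Per kilobase of all exons, Pkm (81.6 CPM) stood above Eno1 (73.7) in Input, and Pgk1 (48.0) was level with Ldha (47.8). In YTHDF3, Aldoa (38.4) and Hk1 (36.2) then stood above Eno1 (35.8). Aldoa in Input, Hk1 in YTHDF1 and Pkm in YTHDF2 and YTHDF3 stayed first, and Tpi1 stayed last in each RIP.

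Shares and ratios within a library do not depend on how libraries are scaled to each other. Hk1 made up 9.995% ± 0.241 of the reads of the 10 genes in Input (SD, n = 3), 35.2% ± 5.61 in YTHDF1, 20.003% ± 0.829 in YTHDF2 and 26.3% ± 1.12 in YTHDF3. Gapdh went from 10.1% ± 0.217 to 3.15% ± 0.846, 4.46% ± 0.134 and 3.72% ± 0.400. The ratio of Hk1 to Gapdh reads was 1.01, 0.986 and 0.982 in Input, 17.4, 8.22 and 10.2 in YTHDF1, 4.77, 4.53 and 4.18 in YTHDF2 and 6.10, 7.14 and 8.17 in YTHDF3. No RIP library overlapped Input or, for YTHDF1, any other RIP library, and the exact permutation test of each RIP against Input gave a two-sided p of 0.1, the smallest that 3 against 3 allows. The pair was described because Hk1 had the highest and Gapdh the lowest fold change in YTHDF1, so the ratio adds no independent evidence of direction.

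The ratios of the isoenzymes were taken in the same way, without a comparison to Hk1 and Gapdh, which had been picked for their extremes. Eno2 to Eno1 was 0.370, 0.269 and 0.154 in Input, 0.853, 0.268 and 0.758 in YTHDF1, 0.461, 0.207 and 0.440 in YTHDF2 and 0.567, 0.437 and 0.249 in YTHDF3, with overlapping groups (exact permutation test, two-sided p of 0.3 to 0.5). Ldha to Ldhb was 3.396, 2.002 and 3.14 in Input and 3.74, 4.44 and 5.49 in YTHDF1, which did not overlap (exact permutation test, two-sided p = 0.1). In YTHDF2 (2.76, 3.68 and 3.74) and YTHDF3 (4.38, 3.10 and 3.84) it overlapped Input (exact permutation test, two-sided p = 0.5 and p = 0.3).

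**Figure D3:**
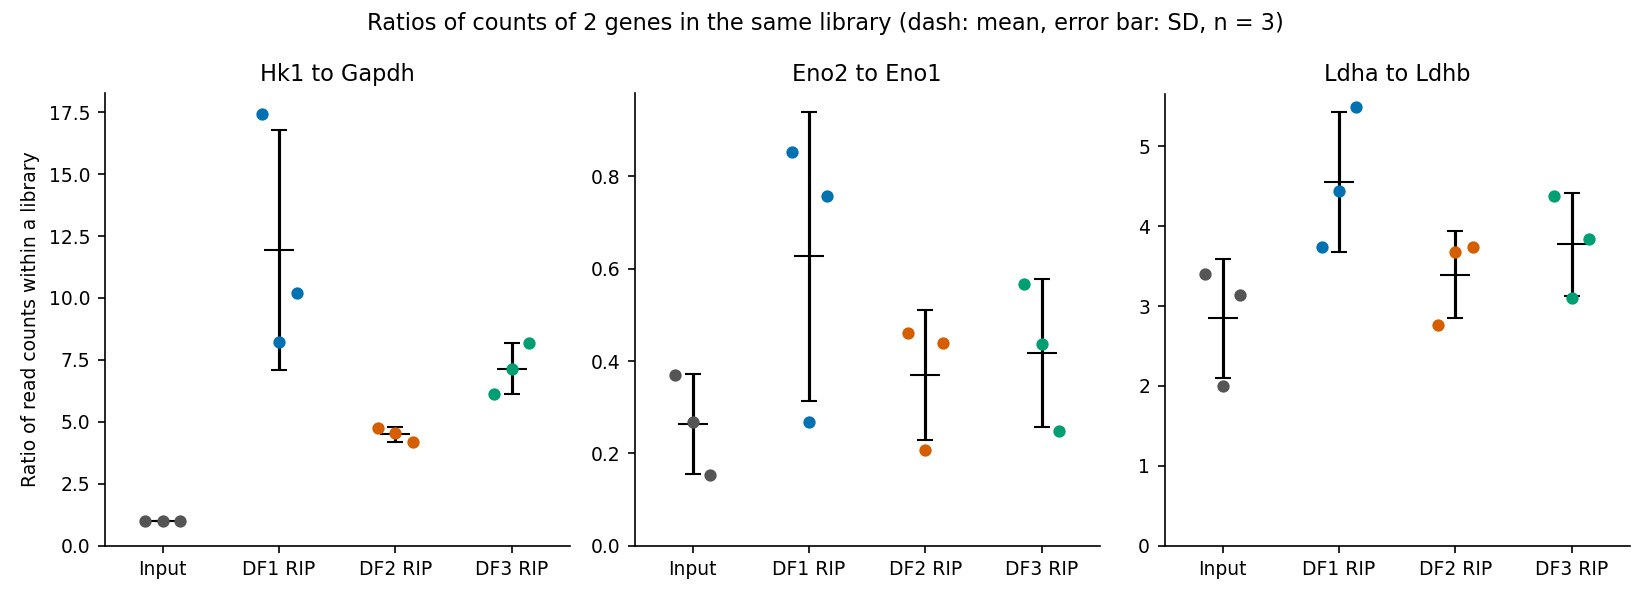
Ratios of the read counts of 2 genes in the same library are plotted for the 3 libraries of each group, with a dash for the mean and an error bar for the SD. The ratio of Hk1 to Gapdh lies near 1 in Input and between 8.22 and 17.4 in YTHDF1, while the ratios of Eno2 to Eno1 overlap between Input and each RIP.

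The RIPs were then compared with each other, with a fold of at least 2 and an adjusted p of at most 0.05 for a call. Hk1 was higher in YTHDF1 than in YTHDF2, by 1.41 ± 0.21 on the log2 scale (adjusted p = 0.000549), and no other of the 10 was called in either direction, where 11.4% of all genes were higher and 6.10% lower. Under library size alone, which moved the median of all genes by -0.48, the Hk1 difference was 0.95 (adjusted p = 0.00189), below the fold of 2, and the call was lost. Between YTHDF1 and YTHDF3, Hk1 (1.45 ± 0.21, adjusted p = 0.000778) and Pgk1 (1.16 ± 0.32, adjusted p = 0.0249) were higher in YTHDF1 and none was lower, beside 10.8% and 3.63% of all genes. Between YTHDF2 and YTHDF3 edgeR and DESeq2 called 0 in either direction, beside 3.95% and 1.16% of all genes, and 3 were higher in YTHDF2 at an unadjusted p under 0.05. Of the 10, 0 were lower in YTHDF1 than in either other RIP at an unadjusted p under 0.05 or by DESeq2. All 10 lay higher in YTHDF1 than in YTHDF3, with log2 differences of 0.59 (Ldhb) to 1.45, with Ldhb turning under library size alone. The median of all genes was also above 0 there (0.19), and 74.9% of all called genes were higher in YTHDF1. All 10 lay higher in YTHDF2 than in YTHDF3, with 0.04 (Hk1) to 0.76 (Tpi1), but Hk1 turned under 11 alternatives, library size alone (-0.23) and TMM over protein-coding genes (-0.03) among them, and Eno2 turned without YTHDF2 replicate 3 (0.40 to -0.09). Between these 2 RIPs the median of all genes was 0.07, and 77.3% of all called genes were higher in YTHDF2. Under library size alone the median of all genes in YTHDF1 against YTHDF3 moved by -0.73, the Hk1 difference was 0.72, also below the fold of 2, and Ldhb turned to -0.16. The 3 comparisons share libraries and are not independent of each other.

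Pkm (0.77 ± 0.21, adjusted p = 0.0238) and Ldha (0.92 ± 0.27, adjusted p = 0.0333) passed the adjusted p between YTHDF1 and YTHDF3 but not the fold of 2. Pgk1 was no longer called without YTHDF1 replicate 3 (0.77, adjusted p = 0.0912), Input replicate 3 (1.01, adjusted p = 0.0508), YTHDF3 replicate 2 (1.17, adjusted p = 0.0713) or YTHDF3 replicate 3 (1.01, adjusted p = 0.0892). Without YTHDF1 replicate 1, the library with the lowest value for 8 of the 10, the count called rose from 2 to 6, with Tpi1, Gapdh, Eno1 and Ldha added, where 11.8% of all genes were higher. In the fit of YTHDF1 and YTHDF3 alone with the replicate block Hk1 was not called (1.24, adjusted p = 0.114). Same-numbered libraries of these groups had correlations of -0.35 to 0.11, and whether they came from the same lysate could not be settled.

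RIP over input followed mRNA length over the whole transcriptome. The protein-coding mRNAs were cut into 10 classes of equal size by length, and the median log2 fold change rose from -1.48 in the shortest class to 1.45 in the longest in YTHDF1, from -0.98 to 0.62 in YTHDF2 and from -1.59 to 0.88 in YTHDF3. Spearman's rho with length over 13376 mRNAs was 0.61, 0.41 and 0.62, and over the 10 glycolytic mRNAs it was 0.88 in each RIP. These are descriptions across genes, which share libraries and are not replicates. Aldoa, Tpi1, Gapdh, Ldha and Ldhb fell in the class of 1290 to 1796 bases, whose medians were -0.75, -0.36 and -0.64. Gapdh and Tpi1 lay below the lower quartile of that class in all 3 RIPs, and Hk1 lay above the upper quartile of its class (0.97, for 3637 to 4279 bases) in YTHDF1 but between the quartiles in YTHDF2 and YTHDF3. In YTHDF3, 7 of the 10 lay below the lower quartile of their length class, against 2 in YTHDF1 and 3 in YTHDF2. The 7 depend on the class cuts. Pgk1 (-0.905 against -0.873) and Eno2 (-0.350 against -0.315) lay just under their quartile, and Ldhb, at 1304 bases, was near the lower cut of its class.

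The length trend of each library was removed on the length of all exons of a gene, not on the transcript length used above. These lengths differ, with 8532 against 3851 bases for Hk1 and 5379 against 2027 bases for Eno1. With this trend removed, Hk1 in YTHDF1 was still enriched (1.28 ± 0.20, adjusted p = 0.000326). Its changes in YTHDF2 (0.22 ± 0.19, adjusted p = 0.415) and YTHDF3 (0.09 ± 0.19, adjusted p = 0.754) were not called. Gapdh stayed at -1.55 ± 0.31 (adjusted p = 0.00188), -1.68 ± 0.32 (adjusted p = 0.00263) and -2.27 ± 0.32 (adjusted p = 0.000374), and Tpi1 at -1.10, -1.46 and -2.03. In YTHDF3 the count of depleted mRNAs was 7, beside 16.8% of all genes in this fit, with Pkm called (-0.71 ± 0.21, adjusted p = 0.0223) and Pgk1 not called (-0.46 ± 0.33, adjusted p = 0.324).

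**Figure D4:**
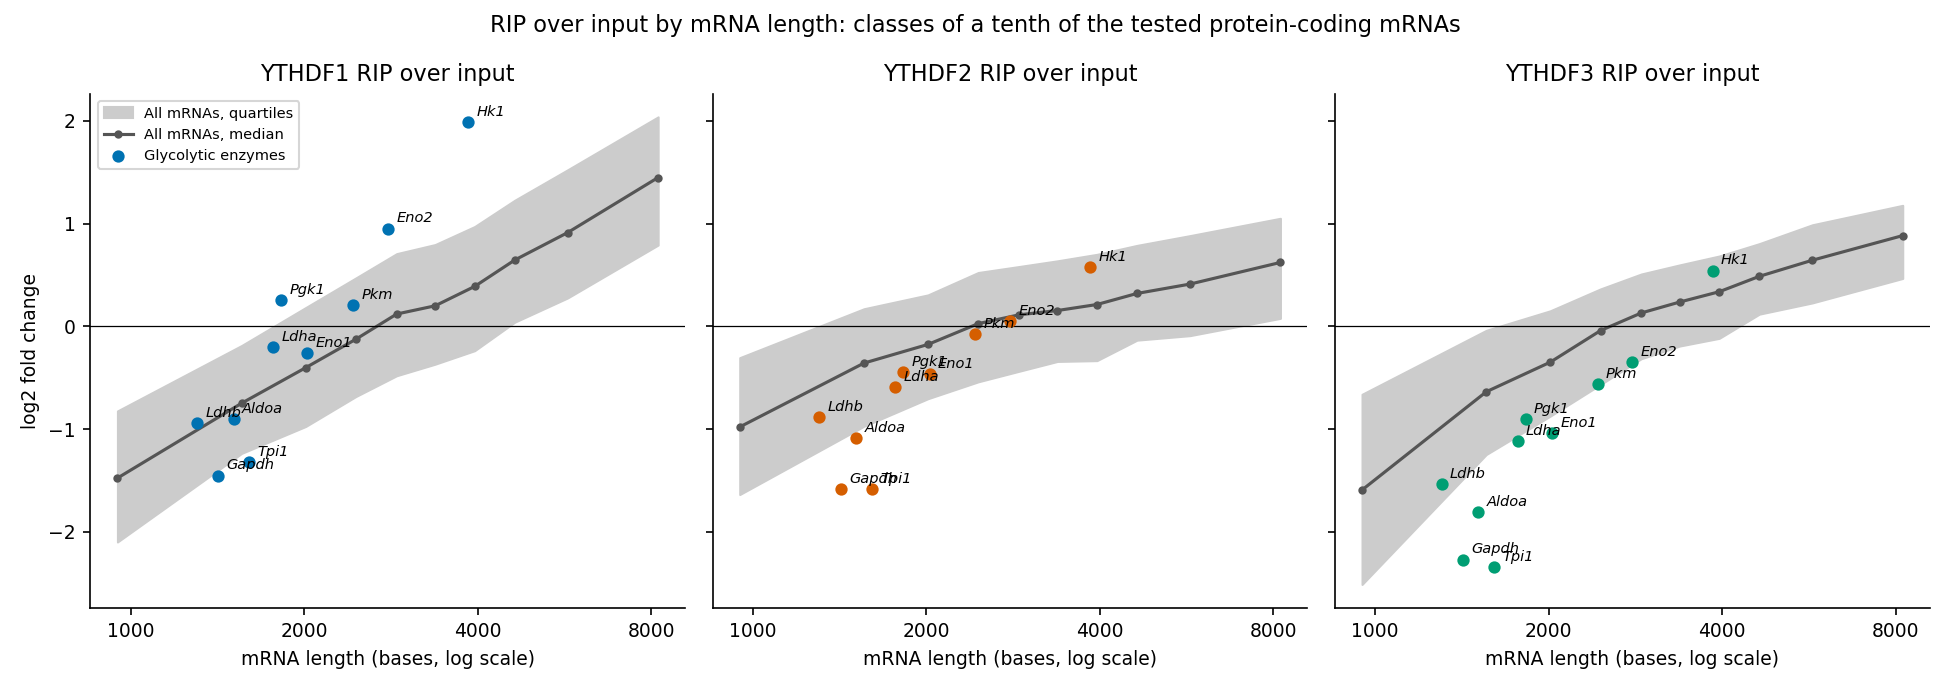
The log2 fold change of each RIP over Input is plotted against mRNA length on a log scale. The line and the grey band give the median and quartiles of 10 length classes of all 13376 tested protein-coding mRNAs, and the points are the glycolytic enzymes. The line and band join the values of the classes at their median lengths. The points rise with length as the line does, with Gapdh and Tpi1 below the band in each RIP. Hk1, Eno2 and Pgk1 lie above it in YTHDF1, and Aldoa, Eno1 and Ldha also lie below it in YTHDF3.

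The number of GGACT matches moved with length. In the YTHDF1 RIP the median log2 fold change was -0.92 for 1055 mRNAs with none, -0.26 for 5985 with 1 to 3, 0.41 for 4685 with 4 to 7 and 1.08 for 1651 with 8 or more, and the median lengths of these mRNAs were 1425, 2413, 3863 and 6612 bases. Hk1, Eno2 and Pkm, which held the most matches in the 10, had the YTHDF1 fold changes that ranked 1, 2 and 4 of the 10. Per kilobase, Spearman's rho between GGACT and the YTHDF1 fold change was 0.62 over the 10 mRNAs but 0.02 over 13376 mRNAs. The part of the motif apart from length was not tested.

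Several members share long near-identical stretches with other loci, and the authors' counting kept reads with several alignments, each of which was counted. Gapdh had 77 copies with at least 95% identity over at least 200 bases, 75 of them pseudogenes, whose reads in Input came to 121.5% of its own count. Pgk1 had 4 copies (125.5%) and Eno1 had 3 (116.9%), among them Eno1b, and the figures for Pkm, Ldhb, Ldha and Tpi1 were 25.94%, 24.1%, 8.537% and 4.085%. Their levels are uncertain to that extent. Hk1, Aldoa and Eno2 had no such copy. Copies named after a member followed it, as in Ldhb-ps (-0.95, -0.77 and -1.53 in YTHDF1, YTHDF2 and YTHDF3) and Pgk1-rs7 (0.34, -0.46 and -0.89). Reads of a copy and of its member cannot be told apart where they share sequence. Pkm overlaps Gm49759 on the same strand.

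Over the 12 libraries, the 10 mRNAs mostly moved together. The median Pearson r of their 45 pairs was 0.73 on log2 CPM, with the highest for Tpi1 and Gapdh (0.99) and the lowest for Hk1 and Ldhb (-0.32). Each of the others correlated with the mean of the remaining members with r of 0.54 (Eno2) to 0.95 (Eno1), whereas Hk1 gave 0.06. Of 9984 other protein-coding genes with a mean of at least 100 normalised counts, Tceal3, Dctn2, Tubb4b, Uqcrc1 and Tceal6 were most like the mean profile, each with r of 0.92. These correlations are descriptions, since the points share libraries, groups and depth.

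The other genes of glucose metabolism were taken from lists chosen by pathway. Over all genes, 27.2% were enriched and 25.8% depleted in YTHDF1, 15.7% and 19.0% in YTHDF2, and 16.4% and 23.0% in YTHDF3. Counts in these short lists that lie near such shares are not a trait of the list. Of 20 other glycolytic enzymes 12 were tested, and 6 were enriched and 1 depleted in YTHDF1, 2 and 2 in YTHDF2, and 1 and 4 in YTHDF3. Gpi1, the isomerase that follows hexokinase, was at 318, 251 and 220 CPM in Input and 939, 2032 and 784 CPM in YTHDF1, a log2 fold change of 2.25 ± 0.33 (adjusted p = 0.000197), and it was not called in YTHDF2 (0.35) or YTHDF3 (0.13). Hk2, a second hexokinase, rose by 2.15 ± 0.48 in YTHDF1 (adjusted p = 0.00303). Pfkp, a subunit of phosphofructokinase, was enriched in all 3 RIPs, by 1.35 ± 0.28, 1.22 ± 0.28 and 1.20 ± 0.28 (adjusted p of 0.00187, 0.00611 and 0.00526). Together with Pfkl and Pfkm, these genes of the first steps were the enriched ones in YTHDF1, beside Hkdc1, which had under 3 CPM in every library.

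Of the later steps, Bpgm, which makes and consumes bisphosphoglycerate, was depleted in all 3 RIPs (-1.20 ± 0.22, -1.01 ± 0.22 and -0.93 ± 0.22, adjusted p of 0.000873, 0.00501 and 0.00551). Pgam1, phosphoglycerate mutase, was depleted in YTHDF2 and YTHDF3 (-0.88 ± 0.26 in both, adjusted p of 0.0218 and 0.0188). Aldoc, the aldolase of astrocytes, was depleted in YTHDF3 (-2.30 ± 0.78, adjusted p = 0.0354). Its values of 40.6, 418 and 220 CPM in Input and 11.9, 75.7 and 50.4 CPM in YTHDF3 overlapped between the groups. In both groups they followed the astrocyte markers in being lowest in replicate 1.

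Of 10 regulators and transporters 8 were tested, with 2 enriched in YTHDF1, 3 enriched and 1 depleted in YTHDF2 and 2 enriched in YTHDF3. Slc16a7, a monocarboxylate transporter of neurons, differed between the RIPs, with 111, 432 and 318 CPM in YTHDF1, 28.3, 23.9 and 27.4 CPM in YTHDF2 and 88.8, 74.3 and 62.0 CPM in YTHDF3 against 96.5, 69.5 and 54.6 CPM in Input. It was higher in YTHDF1 than in YTHDF2 by 3.44 ± 0.43 (adjusted p = 0.000193). Pfkfb4, which sets the level of an activator of phosphofructokinase, was enriched in YTHDF2 (1.42 ± 0.30, adjusted p = 0.00377) and YTHDF3 (1.12 ± 0.29, adjusted p = 0.00972).

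Downstream of pyruvate, 3 of 7 genes of pyruvate entry into mitochondria were depleted in each RIP, among them the pyruvate carrier subunits Mpc1 (-3.17 ± 0.24, -2.72 ± 0.23 and -2.19 ± 0.22) and Mpc2 (-2.59 ± 0.33, -1.86 ± 0.32 and -2.81 ± 0.33). Both have short mRNAs of 958 and 1025 bases. The shares of all genes depleted, beside these counts and those that follow, were 25.8%, 19.0% and 23.0% in YTHDF1, YTHDF2 and YTHDF3. Of 16 genes of the citric acid cycle, 3 were enriched and 9 depleted in YTHDF1, 7 depleted in YTHDF2 and 12 depleted in YTHDF3, with the succinate dehydrogenase subunits Sdhc (-2.47 ± 0.23, -1.73 ± 0.23 and -2.43 ± 0.23) and Sdhd (-2.13 ± 0.25, -1.60 ± 0.25 and -2.06 ± 0.25) the lowest. Of 7 genes of the pentose phosphate pathway, 2 were depleted in YTHDF1, 3 depleted and 1 enriched in YTHDF2 and 5 depleted in YTHDF3, and Taldo1, transaldolase, was depleted in each (-1.12 ± 0.27, -0.91 ± 0.27 and -1.65 ± 0.28). The list medians in YTHDF1, YTHDF2 and YTHDF3 were 0.48, 0.42 and 0.01 for the other glycolytic enzymes and -0.67, -0.63 and -1.07 for the citric acid cycle.

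**Figure D5:**
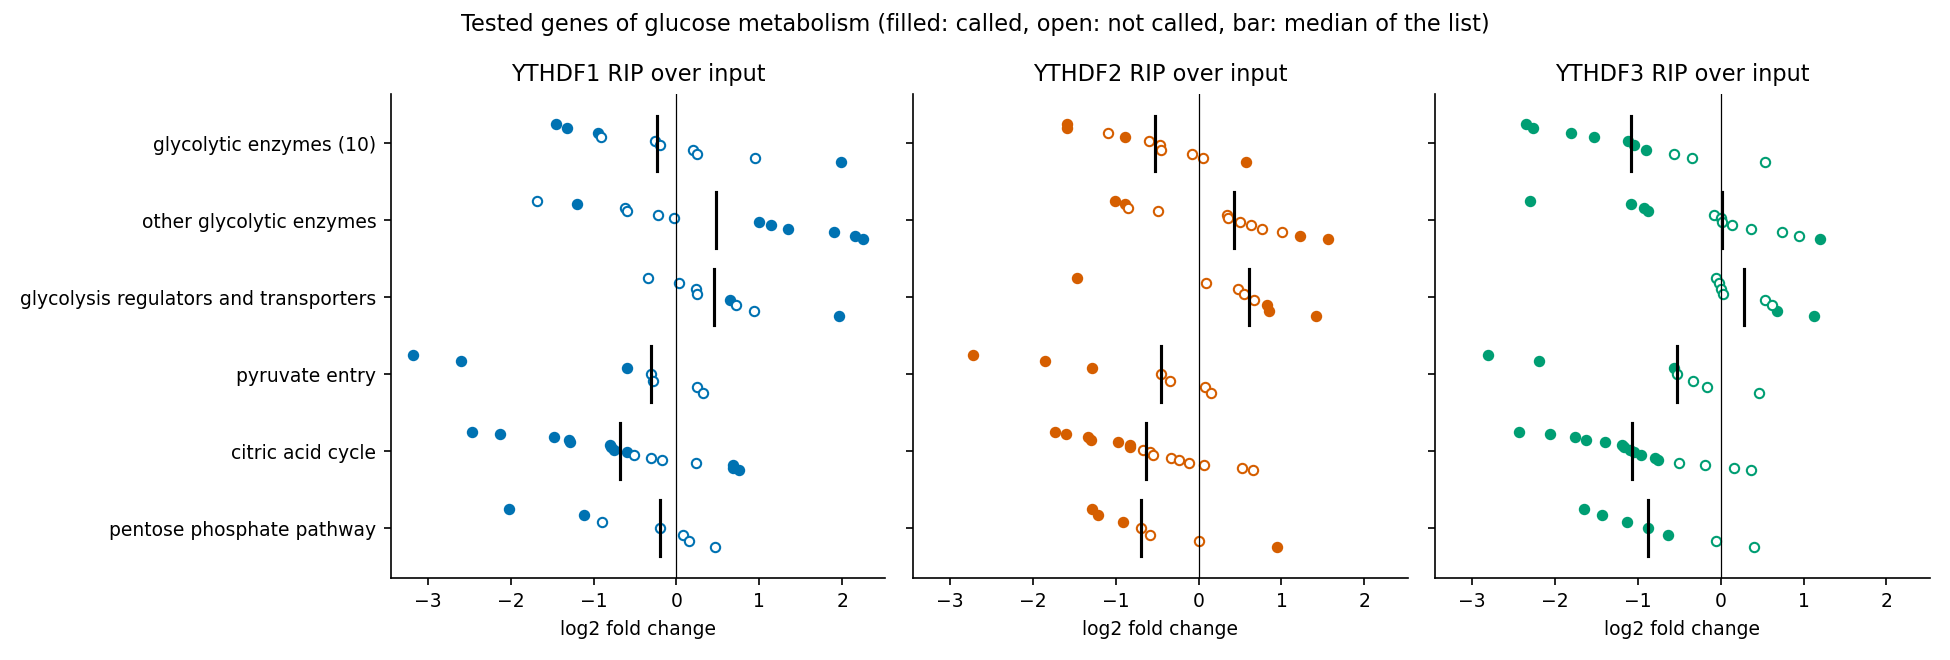
Each point is the log2 fold change of a tested gene in a RIP over Input, by list of glucose metabolism, filled where called and open where not, with a bar at the median of the list. The median of the 10 glycolytic enzymes is -1.08 in YTHDF3 beside -1.07 for the citric acid cycle and 0.01 for the other glycolytic enzymes.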

How the data were processed

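Input and YTHDF1, YTHDF2 and YTHDF3 RIP libraries (3 each) had been made with a stranded total RNA kit with unique molecular identifiers. The authors deposited raw read counts per gene: UMI-tools 1.1.1, cutadapt 3.4, STAR 2.7.7a on mm10 (GRCm38), and featureCounts 2.0.1 with Ensembl 97, stranded, after removal of duplicates, counting reads over several genes and every alignment of a read. How many alignments STAR kept is not given in the sources used here. A deposited table of DESeq2 comparisons, whose mean column is a normalised signal of the authors, served only for gene names and types. Its fold changes and p-values, and those of the other such tables, were not used.

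Genes with a mean TMM-normalised count of at least 10 were kept (17126), and 4 groups of 12 libraries were fitted by edgeR 4.0.16 (R 4.3.3) without a block, as the study's methods name none in their tests, although they describe a lysate split among the RIPs with a shared Input. All 10 members were named in each comparison, and from other lists the 2 highest and 2 lowest calls against Input. The members and lists were chosen with earlier results of these data known. Transcripts, positions and lengths are from GENCODE M21 (GRCm38), and copies were found with blastn 2.17.0+. In counts simulated for YTHDF1 against Input (17126 genes), the test called 93 of 100 genes changed 4-fold, 10 of 100 changed 2-fold and 4 of 16926 unchanged. Few genes were changed there, and all genes shared the same biological variation, unlike in the data. The shares called therefore do not measure the power of the fits reported here. Alternatives were DESeq2 1.42.0, other scalings and filters, a replicate block, removal of the length trend (loess span 0.3), 2 groups alone, and each library left out. The length trend was fitted on the exonic length of a gene in the count table. SE and SD describe the spread between libraries. All pairs deviated together only for YTHDF3 and Input (correlations of deviations of 0.53, 0.83 and 0.80).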

Additional observations from a re-analysis of the deposited data

Results flagged for a closer look

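Of the 10 glycolytic mRNAs, 2 differed between RIPs by a test of the difference itself. Hk1 was higher in the YTHDF1 than in the YTHDF2 RIP by 1.41 ± 0.21 on the log2 scale (edgeR, adjusted p = 0.000549) and higher than in the YTHDF3 RIP by 1.45 ± 0.21 (adjusted p = 0.000778), in 3 of 3 libraries above every library of the other group. Pgk1 was higher in the YTHDF1 than in the YTHDF3 RIP by 1.16 ± 0.32 (adjusted p = 0.0249), and its 3 YTHDF1 libraries lay above the 3 YTHDF3 libraries. Over all genes, 36.7% did not overlap between YTHDF1 and YTHDF2 and 33.1% between YTHDF1 and YTHDF3, in either direction. The Pgk1 call was lost in 10 of 23 alternative settings, with 0.77 (adjusted p = 0.0912) without YTHDF1 replicate 3, 1.01 without Input replicate 3 (adjusted p = 0.0508) or YTHDF3 replicate 3 (adjusted p = 0.0892), 1.17 (adjusted p = 0.0713) without YTHDF3 replicate 2, 0.41 (adjusted p = 0.240) under library size alone and 0.94, below the fold of 2, under TMM over protein-coding genes. Both Hk1 calls were lost under library size alone, at 0.95 and 0.72, and the second also in the fit of these 2 groups with a replicate block (1.24, adjusted p = 0.114). Groups of 3 libraries were too small for a check of single outlying values.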

How the results depend on the processing

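Of 1380 values of single genes under the alternatives, 1292 kept their call, 44 lost and 44 gained one, and none changed sign while called, whereas 48 uncalled values changed sign. The count enriched in YTHDF1 was 2 with no filter, where Eno2 was added. The count depleted in YTHDF1 was 6 under library size alone. Hk1 in YTHDF2 was lost (0 enriched) under TMM over protein-coding genes, with no filter, with the replicate block, with the length trend removed, with both, and with 2 groups alone without or with the block. Hk1 in YTHDF3 was gained (1 enriched) under DESeq2, its size factors, library size alone, a minimum mean of 50, and 2 groups alone without or with the block. The count higher in YTHDF1 than YTHDF2 was 0 under library size alone. The count higher in YTHDF1 than YTHDF3 was 0 under library size alone and for 2 groups with the block, 1 under TMM over protein-coding genes, with the length trend removed without or with the block, and for 2 groups alone. Without single libraries the counts enriched were 1 to 1, 0 to 1 and 0 to 1, those depleted 3 to 4, 3 to 4 and 5 to 8, and those higher in YTHDF1 1 to 1 and 1 to 6. The cause of these changes was not tested. Library size alone moved the all-gene median by -0.40 in YTHDF1 and 0.33 in YTHDF3, and the share of enriched among called genes from 51.4% to 33.2% and from 41.7% to 61.4%. TMM over protein-coding genes gave 40.02% in YTHDF1. The replicate block over 12 libraries took Pgk1 (adjusted p = 0.0559) from the YTHDF3 calls, leaving 6 depleted, and, besides Hk1 in YTHDF2, changed no other of these calls. Every same-numbered pair deviated together only in YTHDF3 and Input. Replicate 2 of YTHDF1 and of YTHDF2 correlated better with an Input library of another number (0.47 and 0.56) than with its own (-0.27 and -0.32), so that values with the block are uncertain for these groups. No fit at reduced depth was run.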
